A study of Mus musculus with 5 samples.

Results

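Genes of the FGF, Activin, TGF-β and BMP signalling pathways were followed in mouse embryonic stem cells transfected with siRNA against Dhx30 or Tfam. The genes were taken by name from the deposited table: those whose names start with Fgf, Smad, Acvr, Bmp, Tgfb, Spry, Spred, Dusp, Lefty or Map2k, with Nodal and Tdgf1 added and Fgf21 left out. This gave 51 of 12930 genes. Of these, 23 belong to the FGF and MAP kinase side (ligands, receptors, MAP kinase kinases, Spred3 and 9 Dusp genes). The Activin, TGF-β and BMP side has 19, and 9 share only the start of a name with these families. Nodal, Tdgf1, Smad2, Fgf4, Fgf5, the Sprouty genes and Acvr1b are not analysed here. The same holds for Fgf8, Fgfr4, Spred1, Spred2, Dusp4, Bmpr1a, Bmpr1b, Tgfbr1 and Tgfbr2. Of 37 core pathway genes listed for naming, 19 were among the 51.

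All libraries came from OG2 cells, whose background the labels give as CBA/CaJ, C57BL/6J and 129Sv/Jae. Of the 5 libraries 2 carry the label siDHX30, 2 the label siTfam, and 1 is the negative control, NC. Every culture spent 24 h in medium with LIF (1000 U/ml), the MEK inhibitor PD0325901 (1 µM) and the GSK3 inhibitor CHIR99021 (3 µM). It then received 50 nM siRNA and 36 h in medium with bFGF (12.5 ng/ml), Activin A (20 ng/ml) and 1% knockout serum replacement. Dhx30 encodes a mitochondrial RNA helicase, and Tfam the packaging and transcription factor of mitochondrial DNA. The labels do not say that replicates came from separate cultures, so the p-values below may reflect technical spread alone.

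FGF binds receptor tyrosine kinases that pass the signal through RAS, RAF and the MAP kinase kinases Map2k1 and Map2k2 to ERK. Sprouty, Spred and some Dusp proteins hold this signal down. Activin and Nodal act through type I and type II receptors and Smad2 or Smad3, BMPs through receptors of these types and Smad1 or Smad5. Both branches use Smad4. Lefty proteins block Nodal, and Smad6 and Smad7 inhibit the receptors. In mouse embryonic stem cells, blocking MEK favours the naive state, and FGF with Activin A moves cells towards the primed epiblast.

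The authors deposited a column of log2 ratios for every siRNA library (4 in all), and the headings name neither the denominator nor the direction. Values are read here against NC and given as siRNA over NC, with the deposited sign turned round. The reason is the pattern of missing values: all 1574 values of genes with a gap in another library were negative as deposited, against 48.7% of the values of complete genes. A minimum count that either library may meet gives that pattern if the ratio is NC over siRNA, because a gene can then be lost only where NC is low. That filter is an inference, so every direction against NC rests on it, while a difference between the siRNAs changes only its sign with it. Under such a filter, a gene with few reads can also have all 4 values because NC alone met the minimum. It would then tend to lie below NC in all 4 libraries by selection. Which complete genes passed in this way was not tested. The targeted transcripts gave a weak check. As turned, Dhx30 lay at -0.40 and -0.20 in the siDHX30 libraries and Tfam at -0.28 and -0.02 in the siTfam libraries, with limma intervals of -0.85 to 0.25 and -0.75 to 0.45. A knockdown at the RNA level was thus not established for either target. No levels or read totals were at hand. A lower ratio cannot be told apart as fewer cells of a type or less RNA per cell. Depth is visible only indirectly: a ratio of small whole numbers recurs, and 13.0% to 14.5% of genes per library had a value identical to that of another gene to 9 decimals. Of the 51 signalling genes, 15 shared at least 1 value in this way, and these are named below where it matters.

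Of the 51 genes, 48 had a value in all 4 siRNA libraries and entered the limma test with the other complete genes, 12088 in all. NC entered as a column of zeros, since it is the denominator of each ratio. No signalling gene passed an adjusted p of 0.05 in any comparison, and neither did any other gene (0.0% called in each of the 3 comparisons). The limma count at an unadjusted p under 0.05 was 1 of 48 signalling genes in siDHX30 against NC, where 5.04% of all genes were under it (2.56% higher and 2.47% lower than NC). It was 2 of 48 in siTfam against NC (6.11% of all genes, 3.04% higher and 3.08% lower) and 1 of 48 in siDHX30 against siTfam (2.79% of all genes, 1.29% higher and 1.5% lower). None of these shares lay above its background. The median 95% interval of a signalling gene reached 0.76 to either side of its mean log2 ratio against NC, and 0.62 for the difference between the siRNAs.

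By their medians the signalling genes lay close to NC and to all genes, on the lower side in both siRNAs. The median log2 ratio was -0.08 in siDHX30, with 19 of 48 genes above NC, and -0.05 in siTfam, also with 19 of 48 above. Over all genes the medians were -0.01 and -0.02, with 48.1% and 47.3% above NC. Library by library the median of the signalling genes came to -0.13 and -0.05 for siDHX30 and to -0.12 and 0.07 for siTfam (replicate 1 before replicate 2), so the siTfam libraries did not share a sign. Both siDHX30 libraries lay above NC in 13 genes (27.1%, against 32.1% of all genes) and below it in 19 (39.6%, against 34.9%). Both siTfam libraries lay above NC in 16 genes (33.3%, against 32.0% of all genes) and below it in 19 (39.6%, against 34.4%). In all 4 siRNA libraries 11 genes lay above NC (22.9%, against 20.1% of all genes) and 14 lay below it (29.2%, against 22.4% of all genes). All 4 ratios share the single NC library, so an unusual NC value moves them together.

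**Figure D1:**
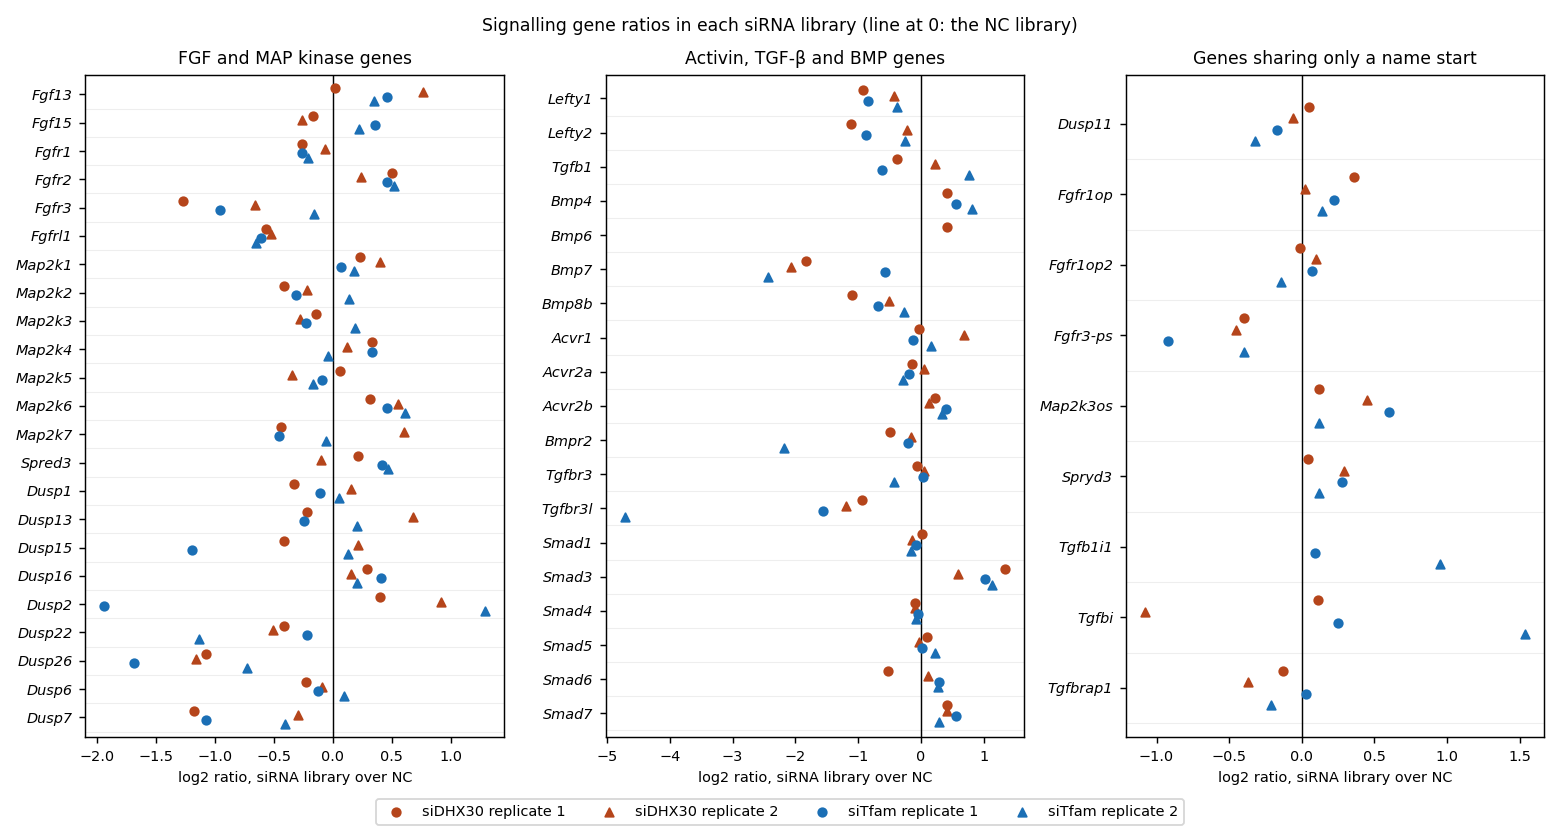
Log2 ratio of each signalling gene over the NC library (x axis; the line at 0 is NC) in the siDHX30 libraries (red) and the siTfam libraries (blue), with circles for replicate 1 and triangles for replicate 2. The x axes differ between panels. Bmp7, Lefty1, Lefty2, Fgfrl1 and Dusp26 lie left of NC in all 4 libraries and Smad3, Smad7, Fgfr2 and Map2k6 right of it.

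Among FGF family ligands 2 genes were measured. Fgf15 encodes the mouse counterpart of human FGF19, a secreted FGF best known as an intestinal hormone. Its log2 ratio was -0.17 and -0.26 in the siDHX30 libraries, against 0.36 and 0.22 in the siTfam libraries. The 2 siRNAs thus lay on opposite sides of NC, a pattern found in 2.47% of all genes, with its mirror image in 2.42%. Each of these values was shared exactly with 1 to 4 other genes of the same library, as ratios of small whole numbers are. An antisense gene, Gm26793, covers 24.9% of its exon bases, and strand use in the counting is not given in the sources used here. Fgf13, an intracellular family member that binds sodium channels, lay at 0.02 and 0.76 in siDHX30 cells, and siTfam cells had 0.46 and 0.35.

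Of the 4 FGF receptor genes, Fgfrl1 encodes a receptor that binds FGF but lacks the kinase domain (ENSMUSG00000008090.14; GRCm38 chromosome 5, 108692382 to 108706924, plus strand). It lay at -0.57 and -0.53 in siDHX30 cells, and siTfam cells had -0.61 and -0.65. All 4 libraries were below NC and close to each other. The siDHX30 mean was -0.55 (SE 0.18, n = 2), or 0.683 of the NC level, with a limma unadjusted p of 0.0364 and adjusted p of 0.933. In siTfam the mean was -0.63 (SE 0.18, n = 2), or 0.645 of NC, with a limma unadjusted p of 0.0237 and adjusted p of 0.706. The siRNAs differed by 0.08 (95% interval -0.32 to 0.48). With 1 of the 4 siRNA libraries left out of the fit, the limma unadjusted p of Fgfrl1 lay between 0.0717 and 0.119 in siDHX30 and between 0.0579 and 0.0792 in siTfam.

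Fgfr1, the receptor through which embryonic stem cells mainly receive FGF4, lay at -0.26 and -0.07 in siDHX30 cells, and siTfam cells had -0.26 and -0.21. Fgfr2 lay on the other side, at 0.50 and 0.24 in siDHX30 cells, and siTfam cells had 0.46 and 0.52, with means of 0.37 (SE 0.21) and 0.49 (SE 0.21, n = 2 each). Its annotated exons share 314 bases with Ctbp2 on the same strand. Fgfr3 was low in each library but unevenly, at -1.27 and -0.66 in siDHX30 cells, and siTfam cells had -0.96 and -0.16. In both siRNAs the library numbered 1 was the lower one. Against NC, 3 of the 4 receptor genes had negative means in both siRNAs, and Fgfr2 was the exception.

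The 2 genes with a limma unadjusted p under 0.05 against NC, Fgfrl1 and Smad3, lay on opposite sides of NC. They are shown with the 250 bases before their RefSeq start (GRCm38.p6, 5′ to 3′ on the gene's strand). Neither passed an adjusted p of 0.05. Of the 51 genes, 38 matched the RefSeq promoter table. Fgf15, with a limma unadjusted p under 0.05 between the siRNAs, was not among them. Capitals mark the ETS core CCGGAA, in either direction, a motif of factors that ERK activates. The SMAD core CAGAC was searched in the same way, and these motifs do not overlap in letters. Fgfrl1 (chr5:108693979-108694228, plus strand) and Smad3 (chr9:63757995-63758244, minus strand) read as follows.
Fgfrl1: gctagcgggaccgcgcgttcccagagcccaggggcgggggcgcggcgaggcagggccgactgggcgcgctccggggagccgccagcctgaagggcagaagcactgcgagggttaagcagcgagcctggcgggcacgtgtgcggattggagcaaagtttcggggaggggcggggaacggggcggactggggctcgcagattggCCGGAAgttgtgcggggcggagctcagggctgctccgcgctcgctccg
Smad3: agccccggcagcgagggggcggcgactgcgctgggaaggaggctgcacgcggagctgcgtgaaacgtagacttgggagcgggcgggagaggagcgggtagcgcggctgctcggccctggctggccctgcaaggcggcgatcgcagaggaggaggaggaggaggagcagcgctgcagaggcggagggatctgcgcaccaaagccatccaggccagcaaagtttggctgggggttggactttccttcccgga
The Fgfrl1 window held 1 ETS core, as did 3952 of all 32851 promoter windows of this length. Neither window held a SMAD core, which was found in 42.2% of all windows. Both were rich in G and C, at 73.6% for Fgfrl1 and 69.2% for Smad3, against a median of 52.4%.

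Of the MAP kinase kinase genes, Map2k1 and Map2k2 encode the ERK activators that PD0325901 inhibits. Map2k1 lay at 0.23 and 0.40 in siDHX30 cells, and siTfam cells had 0.07 and 0.18, above NC in all 4 libraries. The siDHX30 values were both above the siTfam values, with a difference of 0.19 (95% interval -0.26 to 0.63). Map2k2 lay at -0.42 and -0.22 in siDHX30 cells, and siTfam cells had -0.31 and 0.14. Map2k6, an activator of p38, had the highest mean of the 7 in both siRNAs, at 0.31 and 0.55 in siDHX30 cells, and siTfam cells had 0.46 and 0.61. Its means were 0.43 (SE 0.22) and 0.53 (SE 0.22, n = 2 each). Map2k3, the other p38 activator, lay at -0.14 and -0.28 in siDHX30 cells, and siTfam cells had -0.23 and 0.19. The JNK activator Map2k4 and the ERK5 activator Map2k5 had means between -0.15 and 0.23. Map2k7, also a JNK activator, was uneven, at -0.44 and 0.60 in siDHX30 and -0.46 and -0.06 in siTfam, and shares 1349 exon bases with the overlapping gene model Gm49320. Of the 7 genes, 4 had means above NC in siDHX30 and 3 in siTfam.

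Of the Sprouty, Spred and Dusp families, Spred3 and 9 dual-specificity phosphatases were measured, and not all of these phosphatases act on ERK. Dusp6, the ERK phosphatase whose transcript follows ERK activity, stayed near NC, at -0.23 and -0.09 in siDHX30 cells, and siTfam cells had -0.13 and 0.09. The 95% interval of its siDHX30 mean ran from -0.73 to 0.41, and that of siTfam from -0.59 to 0.55. Dusp7, a close relative that also acts on ERK, lay at -1.18 and -0.30 in siDHX30 cells, and siTfam cells had -1.08 and -0.41. As with Fgfr3, both libraries numbered 1 were lower than those numbered 2. Means were -0.74 (SE 0.52) and -0.75 (SE 0.52, n = 2 each), with intervals that included 0.

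Dusp26, a phosphatase best known from neural and neuroendocrine cells, was low in every siRNA library. It lay at -1.08 and -1.16 in siDHX30 cells, and siTfam cells had -1.69 and -0.73. The means were -1.12 (SE 0.46, limma adjusted p = 0.998) and -1.21 (SE 0.46, limma adjusted p = 0.834). Of its 4 values 3 were each shared exactly with 1 other gene. Dusp22, an atypical phosphatase of the JNK pathway, lay at -0.42 and -0.51 in siDHX30 cells, and siTfam cells had -0.22 and -1.14. Dusp2, a nuclear MAP kinase phosphatase, showed how far replicates could part: 0.40 and 0.92 in siDHX30, but -1.94 and 1.29 in siTfam. Dusp15 likewise lay at -0.42 and 0.21 in siDHX30 cells, and siTfam cells had -1.20 and 0.13. Both shared 3 of their 4 values with other genes. Dusp1, an early response gene that acts on p38 and JNK, ranged from -0.33 to 0.15 over the 4 libraries. Dusp16, which acts on JNK, was above NC in all 4, from 0.15 to 0.41. Spred3 lay at 0.21 and -0.10 in siDHX30 cells, and siTfam cells had 0.42 and 0.47. Of the 9 phosphatase genes, 6 had means below NC in siDHX30 and 8 in siTfam, and none passed.

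**Figure D2:**
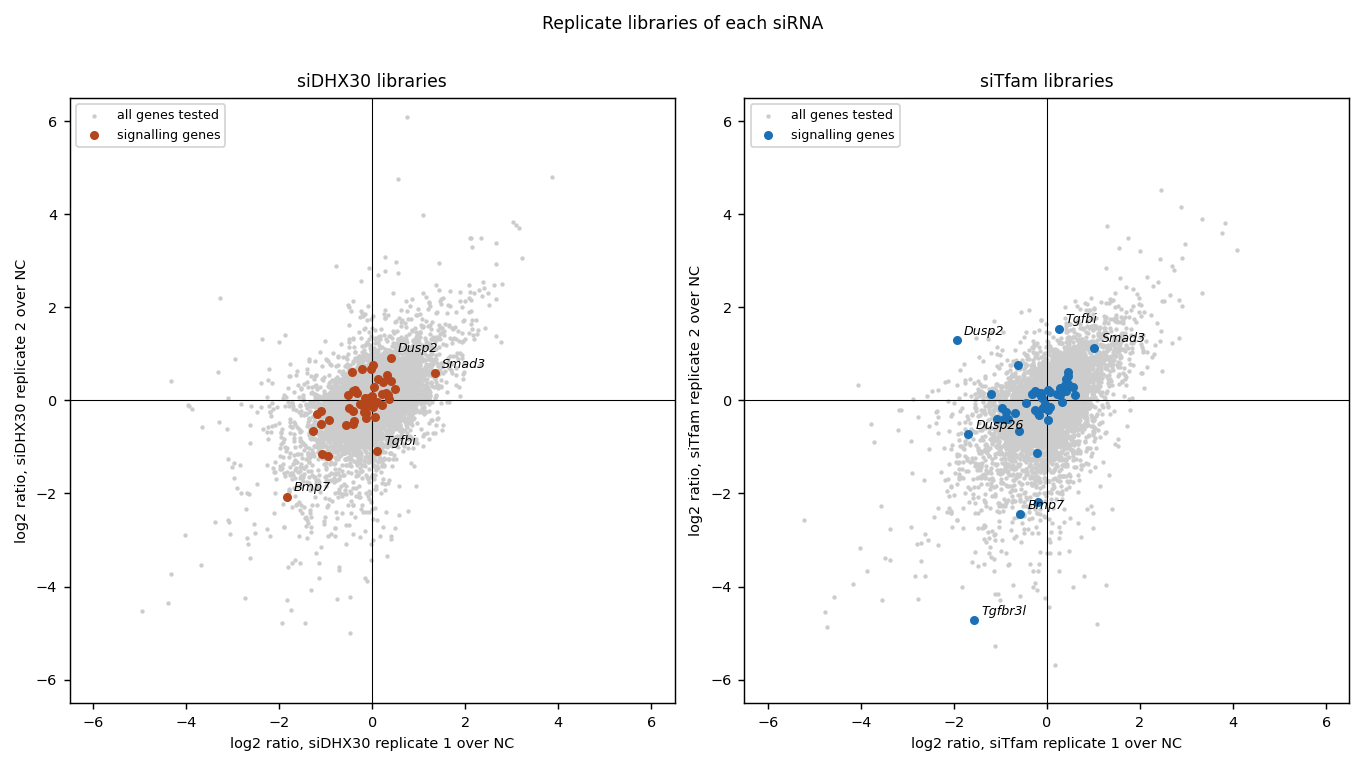
Log2 ratio over NC in replicate 1 (x axis) and replicate 2 (y axis) of siDHX30 (left) and siTfam (right), with all 12088 genes tested in grey and the 48 complete signalling genes in colour. Smad3 and Bmp7 lie on the same side of NC in both replicates, while Dusp2 lies at -1.94 and 1.29 in siTfam.

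On the Activin and Nodal side the inhibitors Lefty1 and Lefty2, which are themselves Nodal targets and neighbours on chromosome 1, were below NC in all 4 libraries. Lefty1 (ENSMUSG00000038793.8; GRCm38 chromosome 1, 180935022 to 180938400, plus strand) lay at -0.93 and -0.43 in siDHX30 cells, and siTfam cells had -0.84 and -0.39. Lefty2 (ENSMUSG00000066652.5; 180893108 to 180899103, plus strand) lay at -1.11 and -0.23 in siDHX30 cells, and siTfam cells had -0.87 and -0.26. For both genes the libraries numbered 1 were the lower ones in each siRNA, and the siRNAs overlapped. Lefty1 had means of -0.68 (SE 0.34) and -0.62 (SE 0.34, n = 2 each), and limma adjusted p of 0.998 and 0.926. Lefty2 had means of -0.67 (SE 0.50) and -0.57 (SE 0.50, n = 2 each). The Lefty genes are near-identical in parts: 17.9% of the 50-base windows of the Lefty1 transcript also occur in Lefty2. For 150-base windows the share was 0.0%. Reads of 50 bases could thus match both genes in those parts. Lengths between these were not tested, and how the counting treated such reads is not stated. Tgfb1, a ligand of the TGF-β receptors, had no steady sign, at -0.38 and 0.23 in siDHX30 cells, and siTfam cells had -0.62 and 0.76.

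Receptor genes of this side were mostly near NC. Acvr2b, a type II receptor of Activin and Nodal, was above NC in all libraries, at 0.22 and 0.13 in siDHX30 cells, and siTfam cells had 0.39 and 0.34. Acvr2a, the other Activin type II receptor, lay at -0.15 and 0.05 in siDHX30 cells, and siTfam cells had -0.19 and -0.28. The siRNAs did not overlap for either gene, but lay in opposite order: their differences were -0.19 (95% interval -0.60 to 0.22) for Acvr2b and 0.19 (-0.26 to 0.64) for Acvr2a. Acvr1, a type I receptor used by BMPs, lay at -0.03 and 0.68 in siDHX30 cells, and siTfam cells had -0.12 and 0.16.

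Bmpr2, the BMP type II receptor, was below NC in all libraries, at -0.50 and -0.16 in siDHX30 cells, and siTfam cells had -0.20 and -2.19. Its siTfam mean of -1.20 (SE 0.90) thus rests on replicate 2. The same library set apart Tgfbr3l, a relative of betaglycan, which lay at -0.94 and -1.20 in siDHX30 cells, and siTfam cells had -1.56 and -4.72. Its exons share 52.2% of their bases with Gm49320, a gene model on the same strand. Tgfbr3, betaglycan itself, ranged from -0.43 to 0.05.

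Smad3, the signal carrier for Activin, Nodal and TGF-β, was the highest signalling gene in both siRNAs (ENSMUSG00000032402.12; GRCm38 chromosome 9, 63646767 to 63757994, minus strand). It lay at 1.34 and 0.59 in siDHX30 cells, and siTfam cells had 1.02 and 1.13. Every library was above NC, and the siRNAs overlapped. The siDHX30 mean was 0.97 (SE 0.38, n = 2), a ratio of 1.95, with a limma unadjusted p of 0.063 and adjusted p of 0.998. In siTfam the mean was 1.07 (SE 0.38, n = 2), a ratio of 2.11, with a limma unadjusted p of 0.047 and adjusted p of 0.809. The siTfam interval ran from 0.02 to 2.13. With 1 of the 4 siRNA libraries left out of the fit its unadjusted p in siTfam lay between 0.0147 and 0.124.

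Smad7, the inhibitor that Activin and TGF-β induce, was also above NC in all 4 libraries, at 0.41 and 0.41 in siDHX30 cells, and siTfam cells had 0.56 and 0.29. Means were 0.41 (SE 0.21) and 0.43 (SE 0.21, n = 2 each), again short of the threshold. Smad4, the partner of both branches, lay near NC, from -0.10 to -0.05 over the 4 libraries. The BMP carriers Smad1 and Smad5 ranged from -0.16 to 0.01 and from -0.04 to 0.23. Smad6, the inhibitor of BMP signalling, lay at -0.53 and 0.11 in siDHX30 cells, and siTfam cells had 0.29 and 0.27. Both siDHX30 values of Smad6 were below both siTfam values, with a difference of -0.49 (95% interval -1.25 to 0.27). Its replicate 2 values, in siDHX30 and in siTfam, were each shared exactly with 1 other gene.

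BMP ligand genes split by whether they had gaps. Bmp7 had the lowest mean of all signalling genes in siDHX30 (ENSMUSG00000008999.7; GRCm38 chromosome 2, 172868012 to 172940321, minus strand). It lay at -1.84 and -2.07 in siDHX30 cells, and siTfam cells had -0.58 and -2.44. All libraries were below NC, with siTfam replicate 1 apart from the other 3. The means were -1.96 (SE 0.84, n = 2), or 0.258 of NC, and -1.51 (SE 0.84, n = 2), or 0.351 of NC, with limma adjusted p of 0.998 and 0.926. Bmp8b lay at -1.10 and -0.51 in siDHX30 cells, and siTfam cells had -0.69 and -0.27, below NC throughout. Bmp4 had no value in siDHX30 replicate 2 and lay above NC elsewhere, at 0.41 in siDHX30 replicate 1 and at 0.55 and 0.81 in siTfam. Bmp6 had a single value, 0.41 in siDHX30 replicate 1. That value is identical to the value of Bmp4 there. All values of genes with gaps lie above NC as turned here, so the sign of Bmp4 and Bmp6 is no measurement of direction, and neither was tested.

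The 9 genes that share only a name start stood near the other genes. Tgfb1i1 had values in siTfam alone, at 0.09 and 0.95. The other 8 comprise Fgfr1op, which encodes a centrosomal protein, Fgfr1op2, the pseudogene Fgfr3-ps, the non-coding Map2k3os, Spryd3, the RNA phosphatase gene Dusp11, Tgfbrap1 and Tgfbi. Their median was 0.02 in siDHX30 and 0.07 in siTfam. Tgfbi, a secreted matrix protein that TGF-β induces in many cells, was the widest, at 0.11 and -1.08 in siDHX30 cells, and siTfam cells had 0.25 and 1.54. Fgfr3-ps was below NC in all 4 libraries, from -0.92 to -0.40, but lies wholly within exons of Nvl on the opposite strand. Without these 9 genes the medians of the others were -0.09 in siDHX30 and -0.08 in siTfam.

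The comparison of siDHX30 with siTfam does not involve NC and sets 2 libraries against 2. The median difference over the 48 genes was -0.03, with 21 above 0, where 49.8% of all genes were. In 5 genes both siDHX30 libraries lay above both siTfam libraries (10.4%, against 14.7% of all genes), and in 6 both lay below (12.5%, against 14.3%). Non-overlap was thus no more frequent than over the whole table. The 5 were Acvr2a, Dusp11, Fgfrl1, Map2k1 and Tgfbr3l, and the 6 were Acvr2b, Fgf15, Smad4, Smad6, Spred3 and Tgfbi. Fgf15 was the gene with an interval that did not include 0, at -0.51 (SE 0.15, 95% interval -0.94 to -0.08; limma unadjusted p = 0.0303, adjusted p = 0.999). With 1 library left out its unadjusted p lay between 0.0679 and 0.128. The lowest means, after Tgfbi at -1.38, belonged to Fgf15, Smad6 at -0.49 and Bmp7 at -0.45. Tgfbr3l at 2.07, Dusp2 at 0.98, Bmpr2 at 0.86 and Dusp15 at 0.43 were the highest, and siTfam replicate 1 or 2 stood apart in each of these 4 genes.

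**Figure D3:**
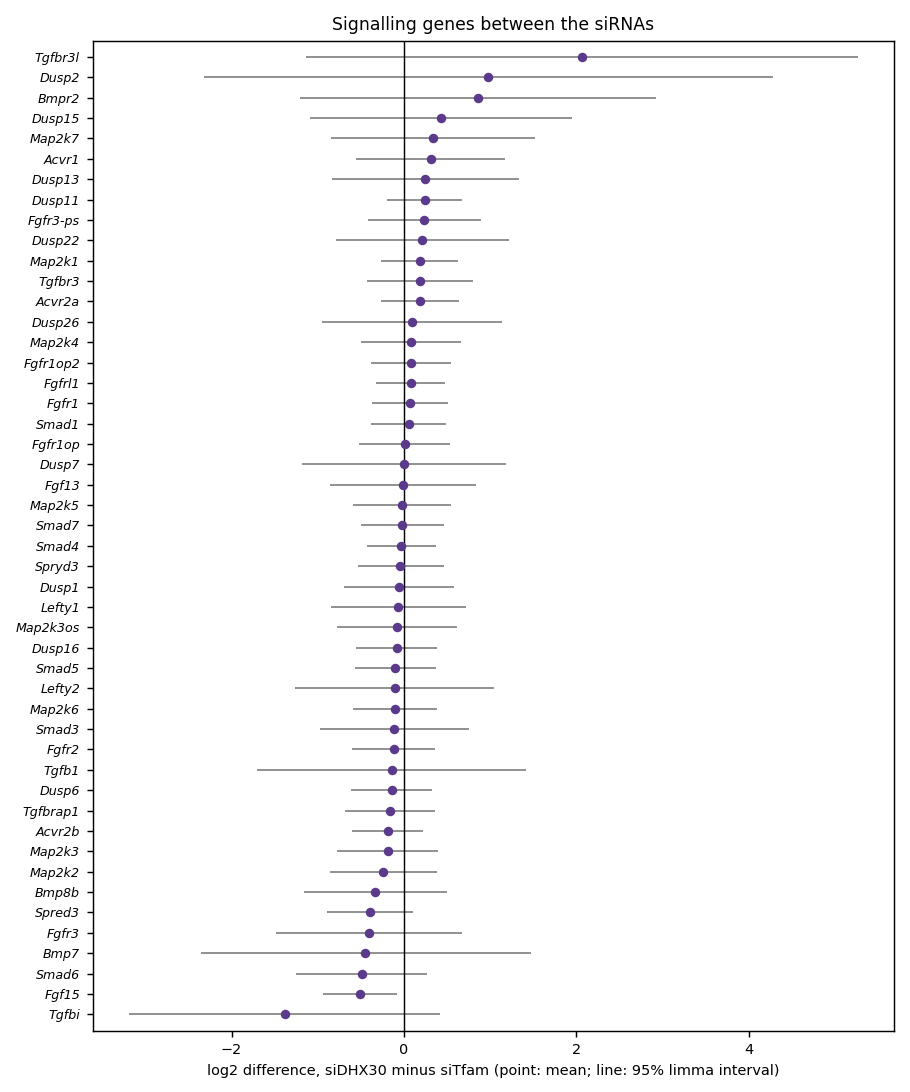
Difference of the mean log2 ratios, siDHX30 minus siTfam (x axis; points), with 95% limma intervals (lines) for the 48 complete signalling genes, sorted by size. The interval of Fgf15, from -0.94 to -0.08, is the one that does not reach 0; those of Tgfbr3l and Dusp2 are the widest.

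Other genes of these pathways, from lists chosen with earlier results of these data known, gave counts of the same kind. None passed an adjusted p of 0.05 in limma. Of 25 measured genes that relay FGF signals to ERK, 14 were above NC in siDHX30 and 9 in siTfam, with medians of 0.02 and -0.04. Ptpn11, the phosphatase SHP2 that ERK activation by FGF needs, was below NC throughout, at -0.42 and -0.33 in siDHX30 cells, and siTfam cells had -0.51 and -0.57. Its limma unadjusted p was 0.109 in siDHX30 and 0.0406 in siTfam. Mapk3, which encodes ERK1, stayed between -0.12 and 0.15.

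A list of ERK response genes and ETS factors had 12 tested genes, and not all of their transcripts are readouts of ERK activity. Of these 12, 9 were below NC in siDHX30 and 7 in siTfam, with medians of -0.08 and -0.13. Fos, the early response transcription factor, lay at -1.12 and -1.10 in siDHX30 cells, and siTfam cells had -1.48 and -2.42 (limma unadjusted p = 0.0684 and 0.0125, adjusted p = 0.998 and 0.676). Both replicate 2 values of Fos were shared exactly with 4 or 5 other genes. Elk1, an ETS factor that ERK phosphorylates, lay at -0.36 and -0.62 in siDHX30 cells, and siTfam cells had -0.63 and -0.62. Etv4 and Etv5, the ETS genes that FGF induces in embryonic stem cells, remained between -0.19 and 0.19. Elk3, another ETS gene of the list, was above NC throughout, at 0.86 and 1.51 in siDHX30 cells, and siTfam cells had 1.35 and 0.45, and 3 of these values were shared with 1 or 2 other genes. The list thus held genes near NC, such as Etv4 and Etv5, as well as Fos well below it and Elk3 well above it.

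Among 21 Activin and Nodal pathway genes, 10 were above NC in siDHX30 and 8 in siTfam, with medians of -0.04 and -0.10. Furin, the protease that matures Nodal and TGF-β precursors, lay at -1.27 and -0.70 in siDHX30 cells, and siTfam cells had -1.02 and -0.87. Its means were -0.99 (SE 0.31) and -0.95 (SE 0.31, n = 2 each), with limma unadjusted p of 0.0346 and 0.0388 and adjusted p of 0.925 and 0.784. Gdf3, a Nodal-related ligand of pluripotent cells, was above NC throughout, at 0.37 and 0.34 in siDHX30 cells, and siTfam cells had 0.50 and 0.58. Otx2, an early epiblast transcription factor, lay at 0.37 and 0.33 in siDHX30 cells, and siTfam cells had 0.63 and 0.43. Otx2, which responds to Activin and Nodal, was thus above NC in all libraries, whereas the Lefty genes, which respond to the same signal, were below it.

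Of 23 listed modulators of BMP signalling (antagonists, co-receptors and proteases) 8 were tested. Their means were below NC in 5 of 8 cases in siDHX30 and in 7 of 8 in siTfam, with medians of -0.29 and -0.36. Over all genes 48.1% of means were above NC in siDHX30 and 47.3% in siTfam. Chrd, the BMP antagonist chordin, lay at -0.98 and -0.55 in siDHX30 cells, and siTfam cells had -0.44 and -0.55. Of the BMP response genes 3 were measured. Msx1 lay far below NC, at -1.61 and -2.23 in siDHX30 cells, and siTfam cells had -2.27 and -1.54. Its limma unadjusted p was 0.0138 and 0.0142, and its adjusted p 0.732 and 0.676. The values in siDHX30 replicate 1 and siTfam replicate 2 were each shared with 1 other gene. Like other genes that share values, Msx1 may be complete only through NC, which was not tested. Tbx3 lay at -1.30 and -2.24 in siDHX30 cells, and siTfam cells had -0.56 and -0.48, so the siRNAs did not overlap. Its difference was -1.25 (SE 0.37; limma unadjusted p = 0.0278, adjusted p = 0.999), and 3 of its values were shared with 2 or 3 other genes. Id3, a direct BMP target, did not follow them, at -0.09 and 0.55 in siDHX30 cells, and siTfam cells had 0.37 and 0.83. The 27 genes of other MAP kinase branches had medians within 0.01 of NC, with 13 above NC in siDHX30 and 12 in siTfam. Their exceptions at an unadjusted p under 0.05 were Mapk15 in siDHX30 (mean -1.31), Map3k9 in siTfam (mean -0.74) and Map3k12 in the difference between the siRNAs (-0.53).

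**Figure D4:**
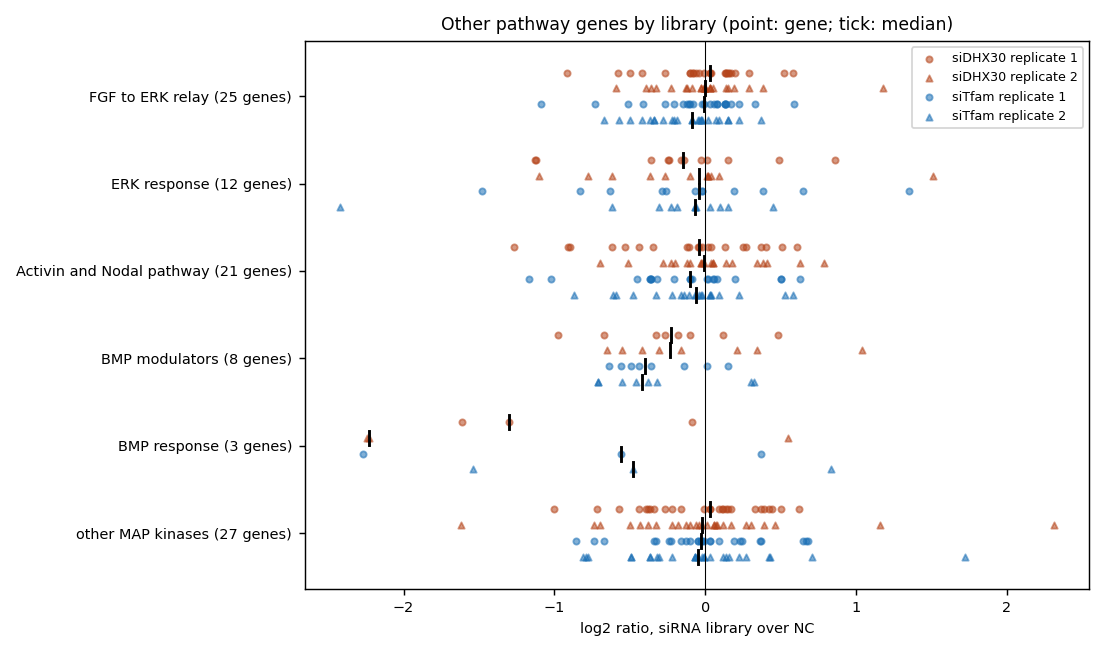
Log2 ratio over NC (x axis) of the other pathway genes, 1 point per gene and library, with black ticks at the median of each library (red, siDHX30; blue, siTfam; circles, replicate 1; triangles, replicate 2). The medians of the relay, Activin pathway and other MAP kinase lists lie near 0, and 2 of 3 BMP response genes lie below NC in all 4 libraries.

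Ratios cannot show whether a marker is expressed, so the labelled cell type was not checked by level. Of the listed pluripotency markers 6 were tested, with medians of 0.07 in siDHX30 and 0.06 in siTfam. Formative and primed epiblast markers (7 tested) had medians of 0.17 and 0.15, and fibroblast markers (5 tested) 0.16 and 0.12. Of 16 listed primitive endoderm markers 7 were tested: Dab2, Sparc, Col4a1, Col4a2, Lama1, Lamb1 and Lamc1. Gata6 had a single value, 1.58 in siDHX30 replicate 2, and was not tested. In siTfam the means of 7 of 7 were below NC, where 47.3% of all genes had means above it. Lamc1 (-0.02), Lamb1 (-0.13) and Sparc (-0.22) were the nearest to NC, then Col4a1 (-0.38) and Lama1 (-0.7). Dab2 (-1.46) and Col4a2 (-1.63) were the furthest. The siTfam library medians were -0.39 and -0.37, and 1 of 7 lay above NC in replicate 1. In siDHX30 4 of 7 were below NC, with library medians of -0.19 and -0.02, and none passed an adjusted p of 0.05 in limma. The siDHX30 mean was above the siTfam mean in 7 of 7, against 49.8% of all genes, with a median difference of 0.40. At a limma unadjusted p under 0.05, 2 of 7 were lower in siTfam than in NC, against 3.08% of all genes. The list was chosen with earlier results known, so this count is description only. The 2 were Dab2 (limma unadjusted p = 0.0443, adjusted p = 0.804) and Col4a2 (limma unadjusted p = 0.0424, adjusted p = 0.79). Dab2, an endocytic adaptor, lay at -1.04 and -0.02 in siDHX30 cells, and siTfam cells had -1.62 and -1.30. Col4a2, a basement membrane collagen, had the lowest means of the 7 markers, at -0.79 and -1.07 in siDHX30 cells, and siTfam cells had -1.05 and -2.21. The 1 trophoblast marker tested, Tfap2c, ranged from -0.18 to 0.46. The part of such cells in the values of Bmp7, Furin or the other genes above was not tested.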

How the data were processed

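Per the submitters' processing notes, reads were handled with bcl2fastq, HISAT2, featureCounts and DESeq2 on GRCm38, without stated settings. Per the file headers, the authors deposited log2 fold values, 1 column for each of the 4 siRNA libraries. No value column was left unused, and no depth per library is given. The signs were turned to siRNA over NC. Names were matched to GENCODE M21 (12660 of 12930).

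The 12088 complete genes were fitted with limma 3.58.1 in R 4.3.3, with NC as a column of zeros, robust=TRUE (prior degrees of freedom 2.02) and Benjamini-Hochberg adjustment over all genes, at a threshold of 0.05. NC was taken to vary as much as the siRNA libraries. The fit was run on simulated data with independent libraries and planted changes larger than most ratios here. That run checks the code, and it does not show the power at the ratios reported. Standard errors and intervals are limma's.

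Members and lists were chosen with earlier results of these data known. Named genes were core pathway members, those with an unadjusted p under 0.05, the 4 highest and 4 lowest per comparison and those with gaps. From each list those with an unadjusted p under 0.05, or else the 2 largest, were named, except some not reported here; Mapk3, Etv4, Etv5, Id3, Elk3, Tfap2c and further members were chosen after their values were seen. Alternatives left out each siRNA library, kept genes with gaps, used robust=FALSE, centred libraries, blocked on the replicate number, used the siRNA libraries alone, kept the deposited sign or left out genes sharing only a name start. Python 3.11.15, pandas 2.3.3, numpy 2.4.6 and matplotlib 3.10.9 made the tables and plots.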

Additional observations from a re-analysis of the deposited data

Results flagged for a closer look

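Fgf15 lay below NC in both siDHX30 libraries and above NC in both siTfam libraries, the one signalling gene of 48 with both siRNAs on opposite sides. The difference was -0.51 (95% interval -0.94 to -0.08), which did not pass in limma (unadjusted p = 0.0303, adjusted p = 0.999). Of all 12088 genes, 299 (2.47%) had the same pattern and 292 (2.42%) its mirror image. Its values were shared with 1 to 4 other genes in each library.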

How the results depend on the processing

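No gene passed an adjusted p of 0.05 under any alternative run, and the smallest adjusted p of a signalling gene in any of them was 0.403. Keeping the deposited sign turned the median of the signalling genes to 0.08 in siDHX30 and 0.05 in siTfam, by construction. With 1 library left out, that median ranged from -0.13 to -0.05 in siDHX30, from -0.12 to 0.07 in siTfam, and from -0.04 to 0.07 for their difference, so the last 2 have no settled sign. Of 216 values of named signalling genes with 1 of their own libraries left out, 30 changed sign. Unadjusted counts moved more. Genes under 0.05 numbered 968 in siDHX30 and 1164 in siTfam with incomplete genes kept, against 609 and 739. Between the siRNAs they numbered 279 to 921 with 1 library left out, against 337; the high values were 921 without siTfam replicate 1 and 665 without siDHX30 replicate 1. For signalling genes these counts ranged from 0 to 3 in siDHX30, 1 to 5 in siTfam and 0 to 4 between the siRNAs.

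Same-numbered libraries deviated together (r = 0.25 and rho = 0.30 across 12088 genes), but with 2 pairs they share only a number. With the replicate block between the siRNAs 0 genes passed, and 566 were under an unadjusted p of 0.05. Unknown depth limits every ratio, and those shared with other genes most.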
